A study of Homo sapiens
Mus musculus and Homo sapiens and Mus musculus with 7 samples.

Results

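The first and the second immunoprecipitate (IP) with the HA antibody are 2 of the 7 RNA libraries of a study that grew HEK293, a human line from embryonic kidney, together with NIH3T3, a line of mouse fibroblasts. They were taken by their labels, as the HA IP of first order and the HA IP of second order, with 1 library each. In the co-culture the HEK293 cells expressed the ribosomal protein RPL22 fused to HA, and the NIH3T3 cells expressed RPL22 fused to V5, so all IPs came from a culture that held both tags. The other libraries are the co-culture input, a HEK293 monoculture, an NIH3T3 monoculture and a first and a second V5 IP. The labels do not say whether the monocultures carried a tag. They derive the first HA IP, like the first V5 IP, from a lysate numbered 1, the second HA IP from a lysate numbered 5 and the second V5 IP from one numbered 4. The labels do not say what those numbers stand for, so IP order and lysate cannot be told apart. With 1 library on each side there is no replicate and no test, and every ratio below describes these libraries only.

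Ribosome pull-down rests on a tagged ribosomal protein: an antibody against the tag captures assembled ribosomes of the cells that carry it, together with the messenger RNAs those ribosomes are translating. RNA that is not on tagged ribosomes, such as RNA of cells without the tag, transcripts made inside mitochondria and RNA kept in the nucleus, is then a measure of what comes along. RPL22 is a protein of the large ribosomal subunit. Human RNA in an HA IP is RNA of the tagged line, and mouse RNA in it is RNA of the line without that tag.

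The first HA IP held 888270 gene counts, 729698 on human and 158572 on mouse genes, and the second held 1563389, 1213213 on human and 350176 on mouse genes. Mouse genes, the untagged background, took 17.9% of the counts in the first (17.8 to 17.9%, exact Clopper-Pearson 95% interval) and 22.4% in the second (22.3 to 22.5%), against 73.1% in the co-culture input. Enrichment of human over mouse counts relative to the input was thus 12.5-fold in the first HA IP and 9.39-fold in the second. Intervals here measure counting error alone, as reads had no molecular identifiers. Levels below are CPM, counts per 1e6 counts of the gene's own species, so the species shares do not enter them. The HEK293 line was checked on 10 markers: KRT18, an epithelial keratin, had 123 CPM in the first and 135 CPM in the second HA IP, NEFL, a neurofilament gene, had 122 and 42.9 CPM, and EPCAM and NEFM had 0 counts in both. Of 14 fibroblast markers, the only human gene to reach a mean of 50 CPM was VIM, with 94.6 and 49.5 CPM and 103 CPM in HEK293 alone, while the human copies of COL1A2, COL3A1, DCN, THY1, PDGFRB and POSTN had 0 counts in both HA IPs.

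The second HA IP spread its human counts over fewer genes than the first, although it was sequenced more deeply. The first held counts on 11644 human genes. Thinned to the same 729698 human counts by an exact expectation, the second held 10712, and the HEK293 monoculture held 12898. The 10 most abundant human genes took 9.64% of the human counts in the first and 12.2% in the second, and the 100 most abundant took 36.3% and 41.7%. Mouse RNA showed the same order, with 7560 mouse genes in the first HA IP and 6792 in the second at 158572 mouse counts, between which lay the co-culture input at 6991. The V5 pair, at that mouse depth, held 7662 and 7562 genes.

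Of 2249 human genes with a mean of at least 50 CPM over both HA IPs, 37 (1.65% of those measured) were more than 2-fold higher in the second and 296 (13.2%) more than 2-fold lower. All 333 had an exact 95% counting interval of the ratio that left out 1, as did 1324 of the 2249 genes. More than 4-fold, 0 genes were higher (0%) and 49 were lower (2.18%). The balance at 2-fold depends on how the libraries are scaled: higher genes made up 11.1% of the called genes on own-species counts, and 44.9% with DESeq2's median-ratio size factors, which gave 131 higher and 161 lower. The excess of lower genes past 4-fold was present under each of the 5 scalings computed, with 0 higher and 28 to 55 lower. The median log2 ratio of all measured human genes was -0.12 on own-species counts and 0.21 with DESeq2's size factors, so gene groups are given below relative to that median.

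**Figure D1:**
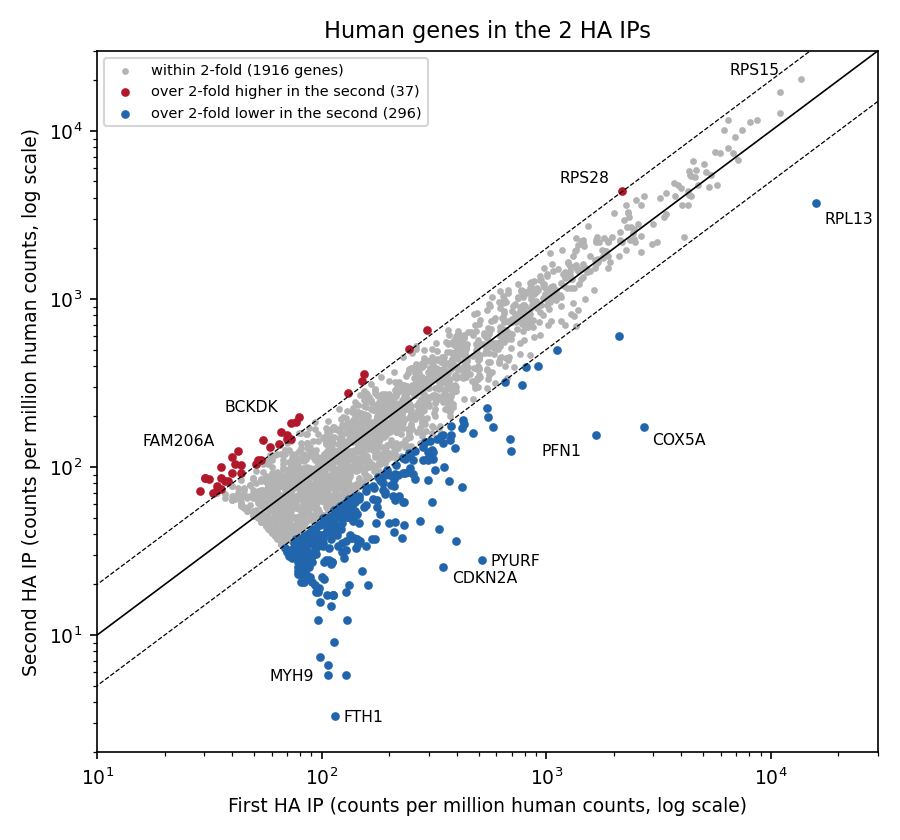
Levels of 2249 human genes in the first (x axis) and second (y axis) HA IP, in CPM of human counts on log axes; each point is a gene in 1 library per axis, the solid line marks equal levels and the dashed lines 2-fold. The 296 lower genes (blue) reach far below the lower dashed line, down to FTH1 at 115 against 3.30 CPM, while the 37 higher genes (red) stay close to the upper one.

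The genes farthest below the line in the second HA IP included subunits of the respiratory chain, actin-binding proteins and a locus of cell-cycle inhibitors. COX5A, a subunit of cytochrome c oxidase (ENSG00000178741.11; hg38 chromosome 15, 74919791 to 74938168), had 2716 CPM in the first HA IP and 174 CPM in the second, from 1982 and 211 counts. It was 15.6-fold lower in the second (95% counting interval 13.5 to 18.1), with 564 CPM in the co-culture input and 575 CPM in HEK293 alone. The first HA IP thus lay above both of those libraries and the second below both. UQCRFS1, the Rieske iron-sulfur protein of complex III (ENSG00000169021.5; chromosome 19, 29205321 to 29213541), had 395 and 36.3 CPM, which is 10.9-fold lower (7.90 to 15.3), beside 57.1 CPM in the input and 64.1 CPM in HEK293. PFN1, the actin-monomer binding protein profilin (ENSG00000108518.7; chromosome 17, 4945652 to 4949061), had 1662 and 155 CPM, 10.7-fold lower (9.19 to 12.6), beside 350 and 313 CPM. MYH9, the heavy chain of non-muscle myosin (ENSG00000100345.21; chromosome 22, 36281277 to 36388067), went from 78 to 7 counts, or 107 to 5.77 CPM. These 4 genes were chosen for a first HA IP above the second. In all 4 the first HA IP also exceeded the input and the HEK293 monoculture, which that choice favors.

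CDKN2A, the locus of the cell-cycle inhibitors INK4a and ARF (ENSG00000147889.17; chromosome 9, 21967753 to 21995301), had 348 CPM in the first and 25.6 CPM in the second HA IP, 13.6-fold lower (9.36 to 20.5). Its levels in the input and in HEK293 were 24.99 and 37.5 CPM, so the second HA IP was near those and the first stood apart. PYURF had 518 and 28.0 CPM, beside 92.8 CPM in the input and 173 CPM in HEK293. FTH1, the heavy chain of the iron store ferritin, had 84 and 4 counts, 34.9-fold lower with a wide interval of 13.1 to 131. Exons of other genes cover 62.4% of FTH1's exonic bases, 39.9% of SCAND1's and 16.2% of PYURF's, and counting without strand could not assign reads there. SCAND1 had 129 and 5.77 CPM. At lower levels, NMU, the peptide neuromedin U, had 107 and 6.59 CPM, RAB7A, a GTPase of late endosomes, had 114 and 9.07 CPM, HDAC1, a histone deacetylase, had 98.7 and 7.42 CPM, and VAPA, a tether of the endoplasmic reticulum, had 130 and 12.4 CPM. All 4 were above both the input and the HEK293 monoculture in the first HA IP and below both in the second. They too were chosen by the ratio of the HA IPs, which favors this order.

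Some genes were counted in one HA IP and had no count in the other. Of 13720 human genes with a count in either HA IP, 95 had at least 10 counts in the first and 0 in the second, with at most 72 counts. There were 96 genes the other way round, with at most 31 counts in the deeper library, where 10 counts are a lower CPM. Both are thus a small part of the genes counted. CFD, the complement protease factor D, had the 72 counts in the first HA IP, 98.7 CPM. A floor of 3 counts in the second, 2.47 CPM, makes it at least 39.9-fold lower there. OSBPL8, a lipid transfer protein, had 43 counts, 58.9 CPM, and was at least 23.8-fold lower. ASPM, a mitotic spindle protein, had 31 counts, 42.5 CPM, and was at least 17.2-fold lower. In HEK293 alone CFD had 29.03, OSBPL8 35.1 and ASPM 54.4 CPM. These 3 genes were taken for their counts, after those were seen.

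The higher genes moved less. FAM206A (ENSG00000119328.11; chromosome 9, 108934181 to 108950744) had 42.5 CPM in the first and 125 CPM in the second HA IP, a ratio of 2.95 (1.99 to 4.49), with 59.3 CPM in HEK293. CIZ1, a zinc finger protein of DNA replication sites, had 39.7 and 115 CPM, and SWI5, a recombination factor, had 153 and 359 CPM. BCKDK, the kinase of branched-chain keto acid breakdown, had 79.5 and 199 CPM and COA5, an assembly factor of cytochrome c oxidase, had 72.6 and 183 CPM. In BCKDK the second HA IP was the closer of the pair to HEK293 (225 CPM), while in COA5 the first was (81.0 CPM). RPS28, a protein of the small subunit, had 2171 and 4382 CPM, a ratio of 2.02 (1.91 to 2.14), and its pseudogene RPS28P7 had 295 and 657 CPM. Reads of these near-identical copies may be split between them, so their values are not separate observations. SNHG9, SMIM19, SSH2, FRA10AC1 and PHF19 completed the 12 genes whose counting interval lay farthest above 1, with log2 ratios of 1.36, 1.45, 1.46, 1.24 and 1.27.

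The medians of the called genes lay on opposite sides of HEK293 in the first and the second HA IP. The lower genes had a median log2 ratio to HEK293 of 0.46 in the first HA IP and -1.01 in the second, and of 1.71 and 0.19 to the co-culture input. Of the 296, 232 were above HEK293 in the first and 17 in the second, beside 1512 and 1174 of all 2249 genes. In the second 173 of the 296 still exceeded the input, beside 1503 of all genes. Among the 49 genes more than 4-fold lower, 48 were above HEK293 in the first HA IP and 0 were above it in the second. The 37 higher genes had medians to HEK293 of -0.15 in the first and 1.18 in the second. Of these 37, 18 were above HEK293 in the first and 36 in the second, so not all of them changed side. The called genes were chosen by the levels in the same HA IPs, so these medians and counts describe the selection and carry no test. Over all 2249 genes the Spearman correlation of log2 CPM with HEK293 was 0.855 for the first HA IP and 0.775 for the second, with the co-culture input it was 0.706 and 0.785, and between the HA IPs it was 0.840. The first HA IP thus ranked genes more like the HEK293 monoculture and the second more like the input. Genes are not independent replicates, and all libraries show the same sequencing-run folder in their headers.

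The scatter between the HA IPs was larger than counting error at every level. The standard deviation of the log2 ratio over genes was 0.82 among 854 genes of 50 to 100 CPM and 0.51 among 176 genes of 1000 CPM and more, against 0.26 and 0.05 from counting alone. The lower calls were concentrated at low levels: 22.4% of the genes of 50 to 100 CPM were more than 2-fold lower, 10.9% from 100 to 300, 3.42% from 300 to 1000 and 1.70% above that. The median log2 ratio over these bins was -0.38, -0.15, 0.07 and 0.17. The median of a group thus depends on its level. All 585 human genes at 300 CPM and more had a median of 0.10 and the others one of -0.24, and for lists with several members at that level the median over those members is given as well.

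The counts of list members past 2-fold are on own-species counts. Ribosomal protein genes were the most abundant group. Their list medians lay slightly above the median of all genes but below that of genes at high levels. Of 50 genes of the large subunit, 36 were above the median of all genes. None was more than 2-fold higher and 1, RPL13, was lower (2%, beside 13.2% of all genes). The list median was 0.02, and 0.03 over the 45 genes at 300 CPM and more. All genes had 0.10 there, and 0.17 at 1000 CPM and more. Of 33 genes of the small subunit, 23 were above the median of all genes, 1 (RPS28) was higher and 0 were lower. The median was 0.01, and -0.02 over 30 genes at 300 CPM and more. Summed over members, the large subunit had 152214 CPM in the first and 164044 CPM in the second HA IP. The small subunit had 106360 and 128798 CPM, so both sums were larger in the second. RPS15 had 13559 CPM in the first and 20300 CPM in the second HA IP, RPL36 had 6455 and 11586 CPM, and RPL8 had 11006 and 12813 CPM. RPL13 went the other way, from 15935 to 3706 CPM, which is 4.30-fold lower (4.15 to 4.45) from 11628 and 4496 counts. It was the most abundant human gene of the first HA IP and had 19881 CPM in the input and 10433 CPM in HEK293, so the second HA IP was the low one. RPL22 itself, the gene of the tagged protein, had 230 and 184 CPM, a ratio of 0.80 (0.65 to 0.98), and its paralog RPL22L1 had 207 and 174 CPM, a ratio of 0.84 (0.68 to 1.04). With DESeq2's size factors the log2 ratio of RPL22 was 0.01 in place of -0.32 and that of RPL22L1 0.09 in place of -0.25, so neither direction held over the scalings.

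Genes of the protein synthesis machinery outside the ribosome lay below the median of all genes. Of 36 translation factors that reached 50 CPM, 27 were below it, 8 (22.2%, beside 13.2% of all genes) were more than 2-fold lower and 0 were higher, with a median of -0.53. The lower ones were ABCE1, which recycles ribosomes and had 106 and 17.3 CPM, EIF2S1 and EIF2S3, subunits of the initiator-tRNA carrier, with 126 and 28.8 CPM and 148 and 36.3 CPM, and EIF3F, EIF3M, EIF4G1, ETF1 and EIF4G2. The remaining subunit of that carrier, EIF2S2, had 903 and 976 CPM, and EIF1, which selects start codons, had 2560 and 2784 CPM, so members of one complex parted. At 300 CPM and more the list's median was -0.14 over 12 genes. Among 12 aminoacyl-tRNA synthetases, which load tRNAs with amino acids, 10 were below the median of all genes. FARSB (129 and 18.1 CPM) and GARS (236 and 92.3 CPM) were more than 2-fold lower. They are 16.7% of that list, near the 13.2% of all genes and below the 22.4% of genes of 50 to 100 CPM. The list's median level was 94.7 CPM. Of 33 ribosome biogenesis factors 25 were below that median, 5 (15.2%) were lower and 0 higher. The list's median was -0.61, but 0.04 over the 7 genes at 300 CPM and more.

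Chaperones showed the displacement at high levels too. Of 34 chaperones and chaperonins, 24 were below the median of all genes, 9 (26.5%, beside 13.2% of all genes) were more than 2-fold lower and 0 were higher. Their median was -0.58, and -0.47 over 18 genes at 300 CPM and more, where all human genes had 0.10. HSPD1, the mitochondrial chaperonin, had 1120 and 496 CPM, HSPA8, the constitutive cytosolic HSP70, had 776 and 307 CPM, and TCP1, a subunit of the cytosolic chaperonin, had 345 and 138 CPM. HSP90AB1, with 1295 and 810 CPM, and HSP90AA1, with 1211 and 701 CPM, stayed within 2-fold. In the endoplasmic reticulum list, 9 of 32 genes (28.1%) were also lower, among them the chaperones PDIA3, CALR, PDIA6 and HSP90B1, with 655 and 321 CPM for the last. Yet SEC61B, a translocon subunit, had 2306 and 3256 CPM, and the 8 genes of that list at 300 CPM and more had a median of 0.10, the same as all genes.

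Among the 18 lists with at least 6 measured genes, DNA replication had the lowest median, -0.70 over the 19 of 47 genes that reached 50 CPM. Of them, 16 were below the median of all genes and 7 (36.8%) were more than 2-fold lower, beside 13.2% of all genes and 22.4% of those of 50 to 100 CPM, the level of most of the list. RRM1, the large subunit of ribonucleotide reductase, had 110 and 14.8 CPM, DUT, which removes dUTP, had 699 and 124 CPM, and CDC45, part of the replicative helicase, had 145 and 34.6 CPM. PRIM1, RFC2, RFC3 and MCM4 were the others. TK1, a thymidine kinase, had 495 and 433 CPM, and only 4 genes of the list reached 300 CPM, with a median of -0.12. Mitosis genes had 6 of 23 (26.1%) lower, among them CCNB1, the mitotic cyclin, with 212 and 90.7 CPM, while UBE2C, which marks mitotic proteins for breakdown, had 1010 and 1376 CPM. Of 15 high-mobility-group and related chromatin proteins 5 (33.3%) were lower, with HMGN1 at 334 and 42.9 CPM and DEK at 550 and 199 CPM, while PTMA, at 4644 and 5875 CPM, was above the median of all genes. The 8 of these genes at 300 CPM and more had a median of -0.06. Of 46 splicing genes 38 were below the median of all genes, but 6 (13.0%) were more than 2-fold lower, about the share of all genes. The median of that list was -0.46, and -0.19 over 18 genes at 300 CPM and more.

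Of 20 tubulins, actins and myosins, 14 were below the median of all genes and 6 (30.0%, beside 13.2% of all genes) were lower: MYH9, PFN1, TUBA1C, TUBA1B, ARPC3 and ARPC2. The 9 at 300 CPM and more had a median of -0.09. CFL1, the actin-severing cofilin, had 1455 and 1605 CPM. In glycolysis, 3 of 9 genes (33.3%, beside 13.2% of all genes) were lower. They were LDHA with 580 and 172 CPM, PGAM1 with 93.2 and 37.1 CPM and PGK1 with 255 and 110 CPM. GAPDH, the most abundant of them, had 7134 and 6745 CPM, and the 5 at 300 CPM and more had a median of -0.33. The proteasome list had 2 of 29 genes lower (6.90%, beside 13.2% of all genes) and a median of -0.48, or -0.27 over 11 genes at 300 CPM and more. Its most abundant member, PSMA7, had 2364 and 2232 CPM. Of 7 measured genes of the ATF4 response and serine synthesis, PSAT1, SLC3A2 and MTHFD2 (42.9%, beside 13.2% of all genes) were lower. ATF4, their regulator, had 334 and 358 CPM. Of 6 measured cholesterol synthesis genes IDI1 was lower, with 103 and 21.4 CPM. That is 16.7% of the list, near the 13.2% of all genes. Of 22 immediate early genes, which answer growth signals within minutes, the only one to reach 50 CPM was MYC, with 121 and 94.0 CPM and a ratio of 0.78 (0.59 to 1.04).

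**Figure D2:**
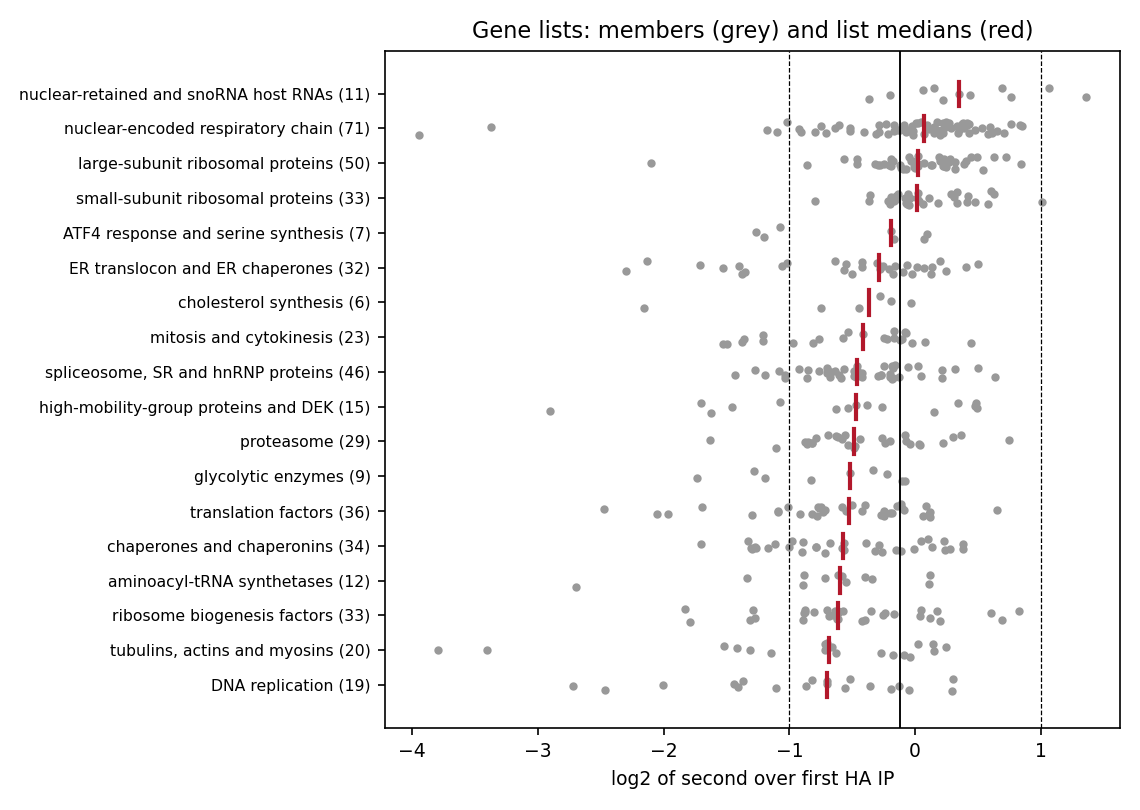
The log2 ratio of second over first HA IP for the measured members (grey points) of 18 gene lists, with each list's median in red and its number of measured members in brackets; the black line marks the median of all human genes at -0.12 and the dashed lines mark 2-fold. List medians run from -0.70 for DNA replication to 0.35 for nuclear-retained and snoRNA host RNAs, and nearly all points past 2-fold lie on the left.

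In the respiratory chain a minority of genes was lower, and the majority lay above the median of all genes. Of 71 nuclear-encoded genes, 47 were above that median and 5 (7.04%, beside 13.2% of all genes) were more than 2-fold lower: COX5A and UQCRFS1, described above, and NDUFA5, UQCRC2 and SDHD, which had 137 and 59.3, 169 and 77.5, and 121 and 58.5 CPM. The list's median level was 526 CPM. Of all genes, 3.42% were more than 2-fold lower from 300 to 1000 CPM and 1.70% above that. The 13.2% of all genes is thus not a comparison at the level of this list. The list median was 0.07. It was 0.16 over 52 genes at 300 CPM and more, where all genes had 0.10, and -0.61 over the 19 below it, where all genes had -0.24. COX5B, the subunit next to COX5A in name and enzyme, had 1721 and 2168 CPM, ATP5MC3 had 2379 and 2680 CPM and NDUFB7 had 2134 and 2488 CPM. COX5A and COX5B, subunits of one enzyme, thus differed in opposite directions.

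Mitochondrially encoded and long non-coding RNA took a larger share of the human counts in the second HA IP. Mitochondrially encoded genes held 0.354% of the human counts in the first (0.340 to 0.368%, 2582 counts) and 0.466% in the second (0.454 to 0.478%, 5655 counts). The shares were 5.58% in the input and 8.35% in HEK293, so both HA IPs lay far below them. All 10 mitochondrial genes that reached 50 CPM were above the median of all genes, with a median log2 ratio of 0.51, and 9 were above 0. MT-ND1, a subunit of complex I, had 69.9 and 138 CPM, a ratio of 1.98 (1.44 to 2.77), MT-ATP6, a subunit of ATP synthase, had 119 and 222 CPM, and MT-RNR2, the large mitochondrial ribosomal RNA, had 1810 and 2291 CPM. MT-CO1, with 301 and 297 CPM, was the exception. Of 11 nuclear-retained RNAs and snoRNA host genes, 9 were above the median of all genes and SNHG9 (54.8 and 144 CPM) and SNHG17 (64.4 and 137 CPM) were more than 2-fold higher, 18.2% of that list beside 1.65% of all genes. The measured members are snoRNA hosts, such as GAS5, ZFAS1 and the SNHG genes, apart from MALAT1. That list is thus not a measure of nuclear RNA. MALAT1, a nuclear RNA, had 311 and 423 CPM, against 2906 CPM in HEK293 but 221 CPM, from 62 counts, in the co-culture input. Both HA IPs thus lay below HEK293 and above the input. Long non-coding genes as a class held 0.807 and 0.985% of the human counts, and pseudogenes 1.13 and 1.31%.

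Mouse mitochondrial RNA, which is RNA of the line without the HA tag, did not follow that order. It took 2.22% of the mouse counts of the first HA IP (2.15 to 2.30%) but 2.02% of those of the second (1.97 to 2.06%), close to the co-culture input at 1.97%. In the V5 IPs, whose tag the mouse cells carried, it was 0.222 and 0.234%. The share of human mitochondrial RNA in the V5 IPs was 2.28% in the first and 3.54% in the second.

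The ratio varied with the length and the base composition of the genes. Over quintiles of exonic length, from 75 to 1927 bases up to 5913 to 29523 bases, the median log2 ratio of human genes was 0.18, -0.03, -0.13, -0.31 and -0.36, and the share of genes more than 2-fold lower was 6.89% in the shortest and 18.5% in the longest quintile. Over quintiles of GC content it was -0.34, -0.32, -0.19, 0.11 and 0.16, from AT-rich to GC-rich genes. Length and GC content are linked, so both were crossed: from the long genes of low GC to the short genes of high GC the median went from -0.42 to 0.22, and within each tertile of GC content it was lowest in the long genes. The genes in the lowest GC quintile took 10.96% of the counts on these genes in the first HA IP, 8.90% in the second, 4.06% in the input and 11.5% in HEK293. Removing the GC trend left 255 lower genes and removing the length trend, an alternative added after seeing the data, left 253, beside 296. Over the 816 of these genes that also had a mean of at least 200 CPM in the V5 pair, the trends differed between the pairs. The Spearman correlation of the ratio with GC content was 0.331 in the HA pair and 0.029 in the V5 pair. With length it was -0.338 and -0.113. Depth, base composition and length differ together between the HA IPs, and their part in the ratios of single genes was not tested.

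**Figure D3:**
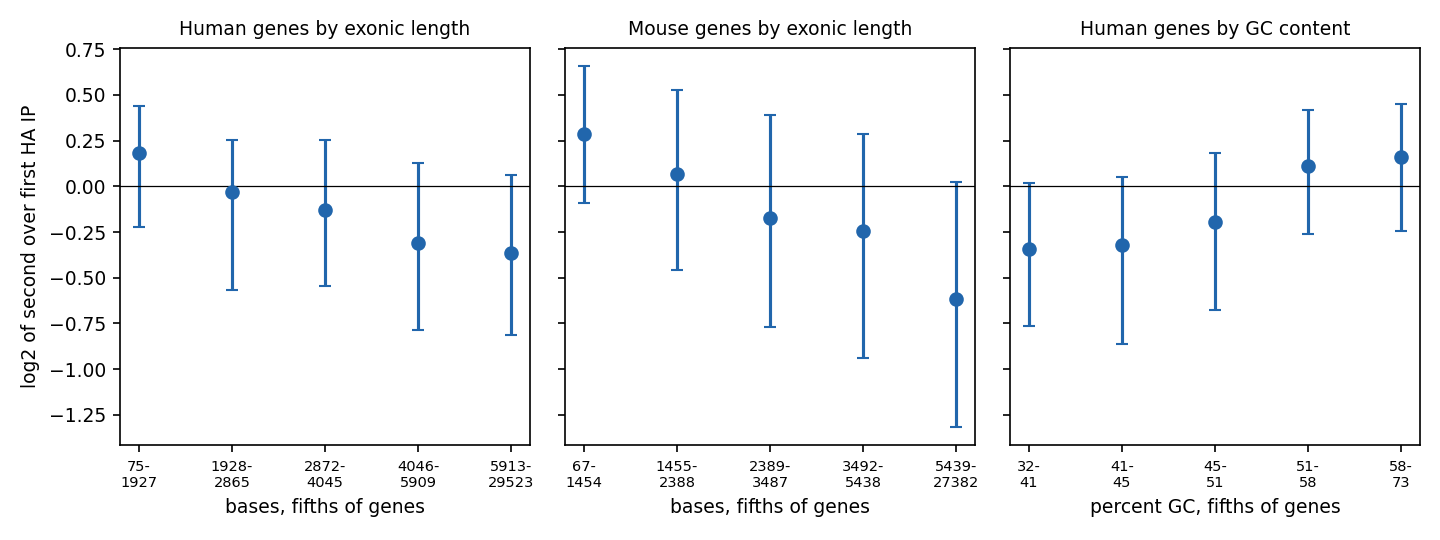
Median log2 ratio of second over first HA IP (points) with the 25th and 75th percentiles over genes (bars) in quintiles of human exonic length, mouse exonic length and human GC content. The median falls from 0.18 to -0.36 over human length and from 0.28 to -0.61 over mouse length, and rises from -0.34 to 0.16 over GC content.

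Mouse genes in the HA IPs, which are carried over from the cells without the HA tag, differed more between the IPs than human genes. Of 2402 mouse genes with a mean of at least 50 CPM of the mouse counts, 168 (6.99%) were more than 2-fold higher in the second and 439 (18.3%) lower, and past 4-fold 21 (0.874%) were higher and 116 (4.83%) lower. Higher genes made up 27.7% of the called ones on own-species counts, 48.8% with DESeq2's size factors and 53.1% on total counts. Past 4-fold, lower genes outnumbered higher ones under all 5 scalings, by 83 to 39 at the least. The standard deviation of the log2 ratio was 1.01, against 0.41 from counting, and 0.72 against 0.20 for human genes. In the first HA IP 1068 counts fell on ENSMUSG00000022443.17 (chromosome 15), 6735 CPM, beside 73 counts or 208 CPM in the second, which is 32.3-fold lower (25.5 to 41.5). That gene had 219 CPM in the input and 803 CPM in NIH3T3 alone, so the first HA IP was the one that stood apart. ENSMUSG00000026879.14 (chromosome 2) had 3393 and 106 CPM, beside 507 CPM in the input. In the other direction ENSMUSG00000052456.9 (chromosome 8) had 25.2 and 263 CPM, from 4 and 92 counts, and ENSMUSG00000050668.10 (chromosome 17) had 12.6 and 174 CPM, from 2 and 61 counts.

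Length went with the mouse ratios more steeply than with the human ones. The median log2 ratio over quintiles of exonic length was 0.28, 0.07, -0.17, -0.24 and -0.61, and 35.1% of the longest quintile was more than 2-fold lower against 3.53% of the shortest. The longest quintile took 10.8% of the counts on these genes in the first HA IP and 6.99% in the second, beside 5.09% in the input, 7.31% in NIH3T3 and 7.29 and 6.86% in the V5 IPs. Over these genes the first HA IP was thus the library with the largest share on the longest quintile. The genes were chosen by their mean over the HA IPs and could pass through a high first HA IP alone. This ranking therefore does not extend to all mouse RNA of the libraries. Over the same 2402 genes the rank order of the first HA IP was also the less like that of the other libraries. The Spearman correlation with NIH3T3 was 0.714 for the first and 0.814 for the second HA IP, with the input 0.643 and 0.803, and with the second V5 IP 0.729 and 0.884. Mouse depth was lower in the first HA IP, and the part of depth in these values was not tested.

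The V5 pair, the other first and second IP of the co-culture, shows whether a gene differs in the same direction with another antibody. The first HA and the first V5 IP came from lysate of one number, so the pairs are not independent. In V5 IPs human RNA is that of the line without the tag, at 128915 and 81798 human counts, so a mean of at least 200 CPM in the V5 pair was asked as well, which 816 of the 2249 genes had. Genes could pass that filter through a high first V5 IP alone, so the counts are also given for the genes with at least 100 CPM in HEK293, a library outside both pairs; this was added after seeing the data. Among these 816 genes, 49 (6%) were more than 2-fold lower in the second HA IP and 71 (8.7%) in the second V5 IP, and 20 were lower in both. The 20 are 40.8% of the HA list and 28.2% of the V5 list. With the HEK293 filter, 130 of 1332 genes (9.76%) were lower in the second HA IP and 185 (13.9%) in the second V5 IP, and 46 were lower in both, 35.4% of the HA list and 24.9% of the V5 list. In the other direction, 4 of the 49 genes lower in the HA pair (8.16%, beside 7.84% of the 816) were more than 2-fold higher in the V5 pair: CDC45, PRPS2, RHOA and TCP1, with 14 to 23 counts in the first V5 IP and 24 to 32 in the second. Of the 10 genes (1.23%) more than 4-fold lower in the HA pair, 9 were more than 2-fold lower in the V5 pair and the other, CDC45, was higher. Both RPL13 and its pseudogene RPL13P12 are among these 9 and among the 20. Reads may be split between such copies, so these are not separate observations. More than 4-fold lower in both pairs were 6 of these 10, beside 1.59% of the 816 genes in the V5 pair. With the HEK293 filter they were 4 of the 16 (1.2%) lower that far in the HA pair, beside 3.15% in the V5 pair. The Spearman correlation of the ratios over the 816 genes was 0.303, and 0.228 over the 1332. Most of the scatter, counting error included, was thus not common to the pairs. Counting error at the low human depth of the V5 IPs lowers this correlation, and its part was not tested.

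The genes lower in both, named after their values were seen, were COX5A, MYH9, PFN1, UQCRFS1, DUT, IMP3, PRKDC, RPL13 with its pseudogene RPL13P12, CKB, ANP32B, the pseudogene RPS2P46, LMAN1, HSPA4, PGK1, MRPS5, PAICS, UBE2V2, EIF4G1 and RBM3. COX5A had 1567 CPM in the first and 73.4 CPM in the second V5 IP, 21.4-fold lower (9.65 to 58.9), close to its fold in the HA pair. RPL13 had 17469 and 3007 CPM there, 5.81-fold lower (5.09 to 6.65). CKB, the brain-type creatine kinase, had 2106 and 605 CPM in the HA pair and 1955 and 489 CPM in the V5 pair, and 566 CPM in HEK293. IMP3, a protein of the U3 snoRNP, had 422 and 75.8 CPM and then 403 and 24.5 CPM, with exons of other genes over 59.3% of its exonic bases. RBM3, a cold-inducible RNA-binding protein, had 814 and 393 CPM and then 644 and 257 CPM. In 17 of the 20 the first HA IP was above the co-culture input and in 19 above HEK293, beside 1534 and 1512 of all 2249 genes. The input, which is 1 library, was at or above the first HA IP in the remaining 3. The second HA IP was below HEK293 in 18 and below the input in 14, and the second V5 IP was below HEK293 in 15. The 20 were chosen for a first IP above the second in both pairs, so these counts largely describe the selection.

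**Figure D4:**
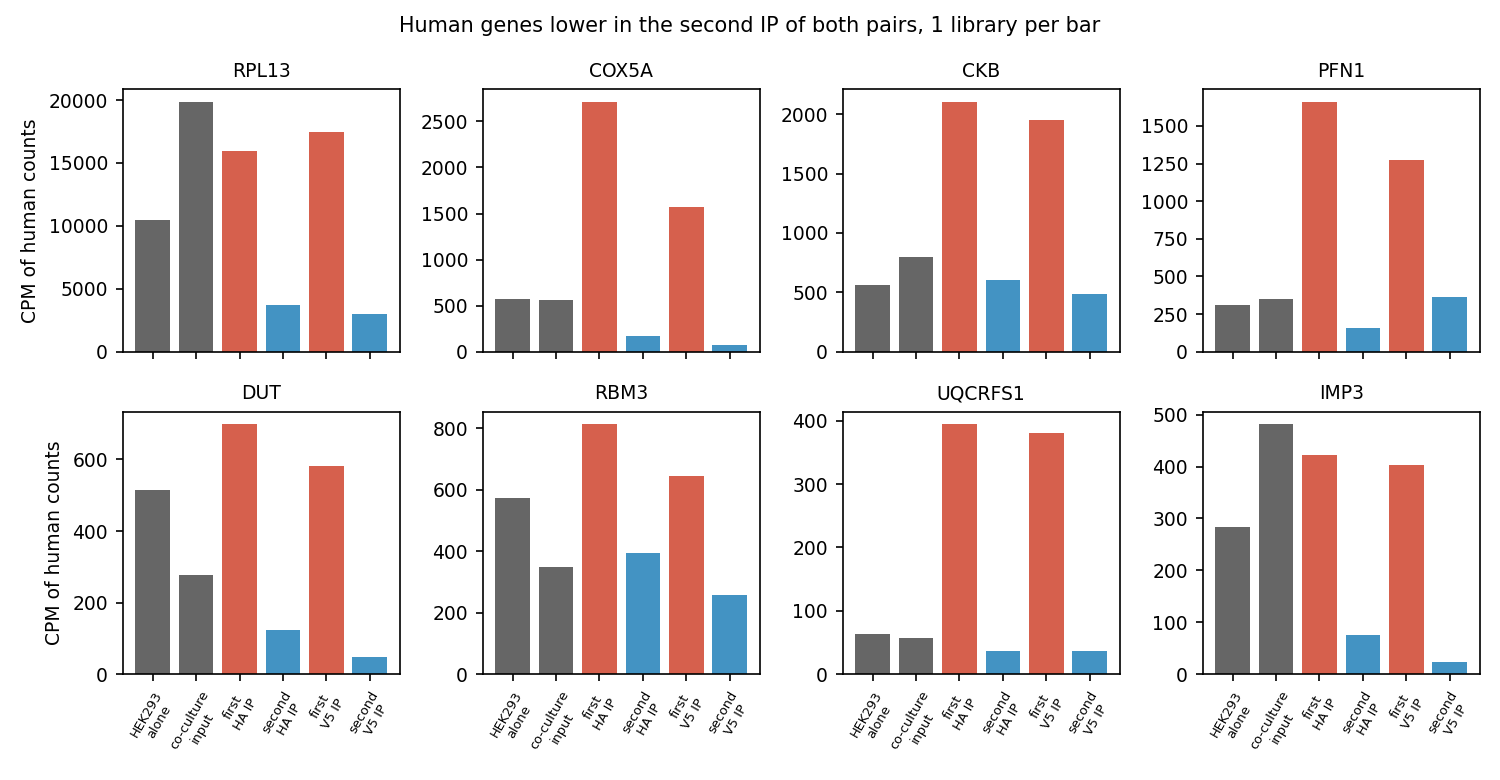
CPM of human counts of RPL13, COX5A, CKB, PFN1, DUT, RBM3, UQCRFS1 and IMP3, 8 of the 20 human genes lower in the second IP of both pairs, 1 library per bar with no error, for the HEK293 monoculture and co-culture input (grey), the first IPs (red) and the second IPs (blue). In each of these 8 panels both red bars exceed both blue bars; for COX5A they stand at 2716 and 1567 CPM against 174 and 73.4 CPM.

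MYH9, another of the 20, stood at other levels in the V5 IPs than in the HA IPs. It had 2032 and 330 CPM in the first and second V5 IP, far above its 107 and 5.77 CPM in the HA IPs, its 35.7 CPM in the input and its 21.8 CPM in HEK293. No count fell on human MYH9 in the NIH3T3 monoculture, which held 1999078 counts. Both pairs thus had the lower value in the second IP, 18.5-fold (8.58 to 47.6) with HA and 6.16-fold (4.14 to 9.52) with V5, at levels that differed between the antibodies.

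**Figure D5:**
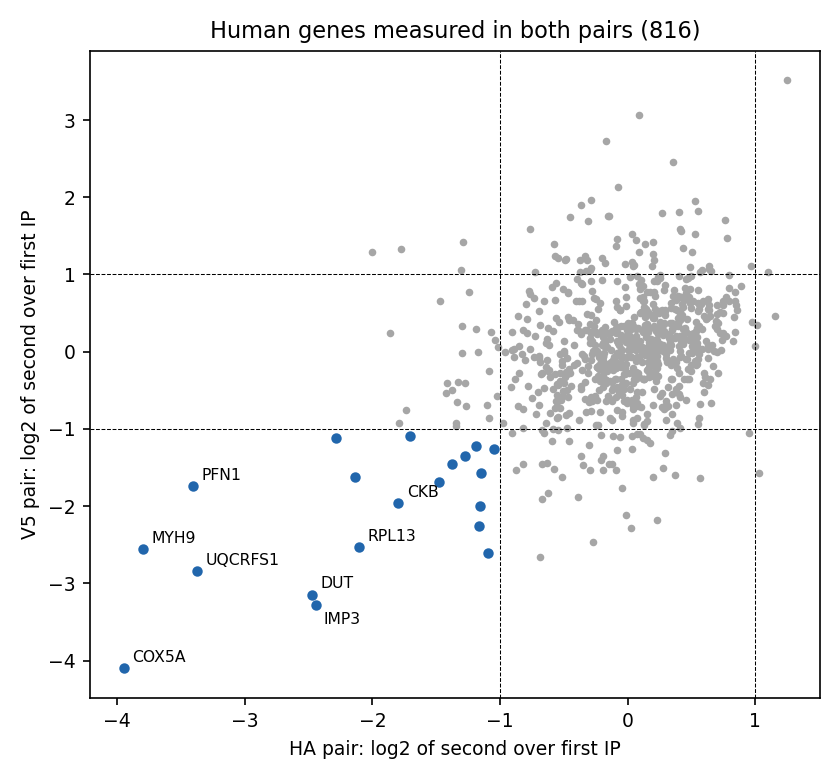
The log2 ratio of second over first IP of 816 human genes in the HA pair (x axis) and in the V5 pair (y axis), with dashed lines at 2-fold; the 20 blue points are lower than 2-fold in both. COX5A, MYH9, PFN1 and UQCRFS1 lie farthest to the left, and most other genes form a cloud around 0 with a Spearman correlation of 0.303.

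For mouse genes, the tagged species of the V5 IPs, the pairs differed in extent. Of 1947 mouse genes with a mean of at least 50 CPM in both pairs, 257 (13.2%) were more than 2-fold lower in the second HA IP and 49 (2.52%) in the second V5 IP, and 142 (7.29%) and 8 (0.411%) were higher. Lower in both were 35 genes, 13.6% of the HA list and 71.4% of the V5 list. Among the 1366 mouse genes with at least 100 CPM in NIH3T3 in place of the mean in the V5 pair, 131 (9.59%) were lower in the second HA IP, 10 (0.732%) in the second V5 IP and 8 in both. The 8 are 6.11% of the HA list and 80% of the V5 list. The count of shared mouse genes thus depends on that filter, as does the count lower in the V5 pair. ENSMUSG00000022443.17 was among the genes low in both second IPs, with 1622 and 389 CPM in the V5 pair, and ENSMUSG00000026879.14 had 947 and 369 CPM there. The Spearman correlation of the mouse ratios was 0.316 over the 1947 genes.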

How the data were processed

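The deposited files hold raw whole-number counts of read pairs per gene, made by the authors with featureCounts 1.5.2 over exons, paired and unstranded, on a joint human and mouse annotation, per the file headers. The submitters' processing notes list bcl2fastq, Trim Galore, STAR 2.5.2, SAMtools and hg38. Per the labels' protocols, SMART-seq made the cDNA and Nextera DNA Flex the libraries. The mouse build was not given in the sources used here. All 58721 human identifiers had GENCODE 29 symbols and matching ends, and 0 of the 54752 mouse identifiers had one, so mouse genes are given by identifier and mouse lists were not computed.

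Counts were divided by the counts of their species in the library. Ratios are second over first on a log2 scale with a prior count of 2, and a gene was called past 2-fold among those with a mean of at least 50 CPM over both HA IPs. Intervals of ratios are exact conditional binomial 95% intervals. No p-value was computed, since each side is 1 library. Named were the 12 human and 8 mouse genes per direction whose interval lay farthest from 1 (for mouse, the 2 per direction with most counts are printed), RPL22, RPL22L1, mitochondrial genes, the 10 most abundant genes, and the 4 most abundant members of each list; called list members were also named, chosen after their values were seen. The comparison, its 21 gene lists and the rules were chosen with earlier results of these data known. Alternatives were edgeR 4.0.16 TMM factors, DESeq2 1.42.0 size factors, total counts, other filters and prior counts, and GC or length trends removed. The procedure was tested on simulated data. Software was R 4.3.3 and Python 3.11.15 with matplotlib 3.10.9, statsmodels 0.14.6, scipy 1.17.1, pandas 2.3.3 and numpy 2.4.6.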

Additional observations from a re-analysis of the deposited data

Results flagged for a closer look

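The mitochondrial share of mouse counts differed by -0.206 percentage points between the second and the first HA IP, and by 0.012 points between the second and the first V5 IP, so the pairs went in opposite directions, and the difference between them was not tested. SSH2, a phosphatase that activates the actin-severing protein cofilin, had 30.1 and 86.5 CPM in the HA pair, a log2 ratio of 1.46, and 12 and 0 counts in the V5 pair. The V5 log2 ratio of -2.56 depends on the prior count, and a floor of 3 counts makes SSH2 at least 2.54-fold lower in the second V5 IP. That difference in direction was not tested either.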

How the results depend on the processing

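No paired analysis was possible because the comparison is 1 library against 1 and comes from no test. Of 1518 values of 113 named genes under the alternatives, 1295 stayed inside the gene's counting interval, 223 left it and 0 of those past 2-fold changed direction. Counts of called genes moved with scaling and filter. With DESeq2's size factors 131 human genes were higher and 161 lower, and 312 mouse genes were higher. On total counts of both species 23 human and 356 mouse genes were higher. At a mean of at least 20 CPM 835 human genes (122 higher, 713 lower) and 1604 mouse genes (485 and 1119) were called, and at 200 CPM 48 (6 and 42) and 79 (30 and 49). With no filter these were 4738 (1503 and 3235) and 3691 (1428 and 2263). A prior count of 10 gave 24 higher human genes and 390 called mouse genes, 95 of them higher. With at least 100 CPM in the monoculture in place of the mean in the V5 pair, 46 human genes (beside 20) and 8 mouse genes (beside 35) were lower in both pairs. Without mitochondrial genes the human share was 82.4% in the first and 77.9% in the second HA IP. With the 20 most abundant nuclear genes left out of the total, the mitochondrial share was 0.417% and 0.572% of human and 2.65% and 2.49% of mouse counts, which kept the order of the IPs. Depth limits the mouse genes and the human genes of the V5 IPs most.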
